A study of Mus musculus with 8 samples.

Results

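The acyl-CoA thioesterases are enzymes that split acyl-CoA, a fatty acid or acetyl group joined to coenzyme A, into the free acid and coenzyme A. The cell activates fatty acids by joining them to coenzyme A, and the thioesterases run against that step, so they set how much acyl-CoA is at hand for oxidation, lipid synthesis and signalling in the cytosol, the mitochondria and the peroxisomes. In the small intestine dietary fat passes through the enterocytes as acyl-CoA before it is built into triglyceride. The family named Acot was described here through 10 genes. Acot12 was chosen because it had the smallest p of the array in the comparison of voglibose with water, and the other 9 (Acot1, Acot2, Acot3, Acot4, Acot7, Acot8, Acot9, Acot11 and Acot13) were taken because they carry the family name, whatever their values. All 10 were measured, each by 1 probe set, among 22206 probe sets, of which 19572 carried a single gene symbol, for 19505 genes. The values of Acot12 in that comparison were therefore selected on, and they are given as a description with which nothing is tested.

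The mice were males of the KKAy strain, a model of obesity with type 2 diabetes that carries the yellow agouti allele. At the age of 14 weeks they weighed 30 g. Fat supplied 45% of the energy of their diet, on which they were kept for 4 weeks before dosing began. For the following 8 weeks 4 mice received voglibose, an inhibitor of the intestinal alpha-glucosidases that slows the digestion of carbohydrate, by gavage at 1 mg/kg each day, and 4 mice received water by the same route at 0.05 ml per 10 g of body weight. All 8 mice shared the strain, the sex and the diet, and no group on another diet or of lean mice was analysed here. From each mouse a length of ileum of roughly 4 cm gave the RNA for 1 array, and a log2 difference of 1 is a doubling of the signal.

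The array medians ran from 5.89 to 5.94 (log2 signal), and the arrays correlated with each other at 0.982 to 0.994 over the probe sets. Over the single values of all arrays the lower quartile of the signal was 4.13, the median 5.91 and the upper quartile 9.11, which serve below as a gauge of dim signal. The piece of ileum was not the same in every mouse by its markers. The list of 12 measured enterocyte markers had a mean signal of 16.95 to 17.34 in water mice and of 17.27 to 17.45 in voglibose mice. The mean of 7 distal ileal genes, among them the bile acid transporter Slc10a2 and the bile acid binding protein Fabp6, was 10.96, 14.62, 12.63 and 9.28 in water mice 1 to 4. In voglibose mice 1 to 4 it was 10.61, 9.08, 12.05 and 12.00. Fabp6 itself lay below the lower quartile of the array in water mouse 4 (4.01) and voglibose mouse 2 (3.54), so that the defining distal marker was at background in these mice. The mean of 6 pancreatic acinar genes was 9.27 in voglibose mouse 2 and 4.57 to 4.84 in the other mice. A member's difference is given below also without water mouse 4 and voglibose mouse 2 where that moved it by over 1.5 times. Since whole tissue was measured, fewer cells of a type and less RNA per cell cannot be told apart.

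The genes lie in several places in the mouse genome. Acot12 and Acot13 are on chromosome 13, Acot7 and Acot11 on chromosome 4, Acot8 on chromosome 2 and Acot9 on chromosome X. Acot2, Acot1, Acot4 and Acot3 follow each other in this order on chromosome 12, with the family members Acot5 and Acot6 next to them. The genes of this cluster are close copies, as are Acot9 and Acot10, so their probe sets can share signal, and each of their values is uncertain in this respect. Promoter windows from RefSeq (GRCm38.p6), the 250 bases before each transcript start, matched 9 of the 10 genes, all but Acot13, through 11 windows. They were searched on both strands for AGGTCA (the core site of nuclear receptors such as PPAR alpha), GGGCGG (the GC box of Sp1) and CACGTG (the E-box). AGGTCA was found in the windows of Acot12 and Acot4, and in 14.0% of 32851 windows of the same length. GGGCGG was found for Acot1, Acot7, Acot8, Acot9, Acot11 and Acot12, and in 32.7% of all windows, while CACGTG was found for Acot4 and Acot11, and in 6.02% of all windows. The windows of Acot12 and Acot4 are shown because these are the members with an AGGTCA match. They run 5′ to 3′ on the strand of the gene, capitals mark the 3 motifs on either strand (TGACCT is AGGTCA read on the opposite strand), and no marked motif overlaps another.
Acot12, chr13:91741271-91741520, plus strand: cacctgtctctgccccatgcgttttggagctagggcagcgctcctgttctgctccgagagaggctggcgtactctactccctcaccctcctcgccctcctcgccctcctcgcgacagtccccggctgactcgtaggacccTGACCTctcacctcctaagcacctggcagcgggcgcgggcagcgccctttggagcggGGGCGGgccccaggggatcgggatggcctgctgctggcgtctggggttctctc
Acot4, chr12:84038129-84038378, plus strand: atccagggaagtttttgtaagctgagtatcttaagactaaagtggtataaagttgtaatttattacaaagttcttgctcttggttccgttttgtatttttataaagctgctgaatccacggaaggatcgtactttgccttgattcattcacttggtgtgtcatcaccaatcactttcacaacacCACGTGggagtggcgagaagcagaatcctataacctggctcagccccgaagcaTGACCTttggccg
The match ended 104 bases before the start of Acot12 and 7 bases before that of Acot4. The windows also differed in base composition, with a GC content of 68.4% for Acot12 and 42.4% for Acot4, against a median of 52.4% over all windows. A match describes letters in a window and shows no binding.

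Acot12 encodes a cytosolic thioesterase with a lipid-binding START domain that hydrolyses acetyl-CoA and is best known from liver. Its log2 signal was 12.20, 12.50, 12.63 and 12.69 in the 4 water mice. In the 4 voglibose mice it was 10.77, 11.38, 10.27 and 11.41. Every voglibose mouse lay below every water mouse, with a gap of 0.79 between the nearest mice, and voglibose mice 1 and 3 were the lowest. The means were 12.51 ± 0.22 and 10.96 ± 0.55 (SD, n = 4), so the voglibose mice also spread more widely than the water mice. The difference of -1.55 ± 0.25 (SE) equals a 2.92-fold lower signal. Leaving out 1 mouse at a time gave -1.70 (without voglibose mouse 4) to -1.32 (without voglibose mouse 3), and leaving out water mouse 4 and voglibose mouse 2 together gave -1.63. The property that chose it, the smallest p of the array, held in 9 of 17 alternative analyses, and its rank ran from 1 to 53, the last without moderation of the variance. Hepatocyte markers moved little beside it: their list mean was 4.00 to 4.28 in water mice and 4.07 to 4.19 in voglibose mice. Those means lay close to the array's lower quartile, and albumin (Alb) was at 3.78 to 4.47 and 4.07 to 4.48.

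**Figure D1:**
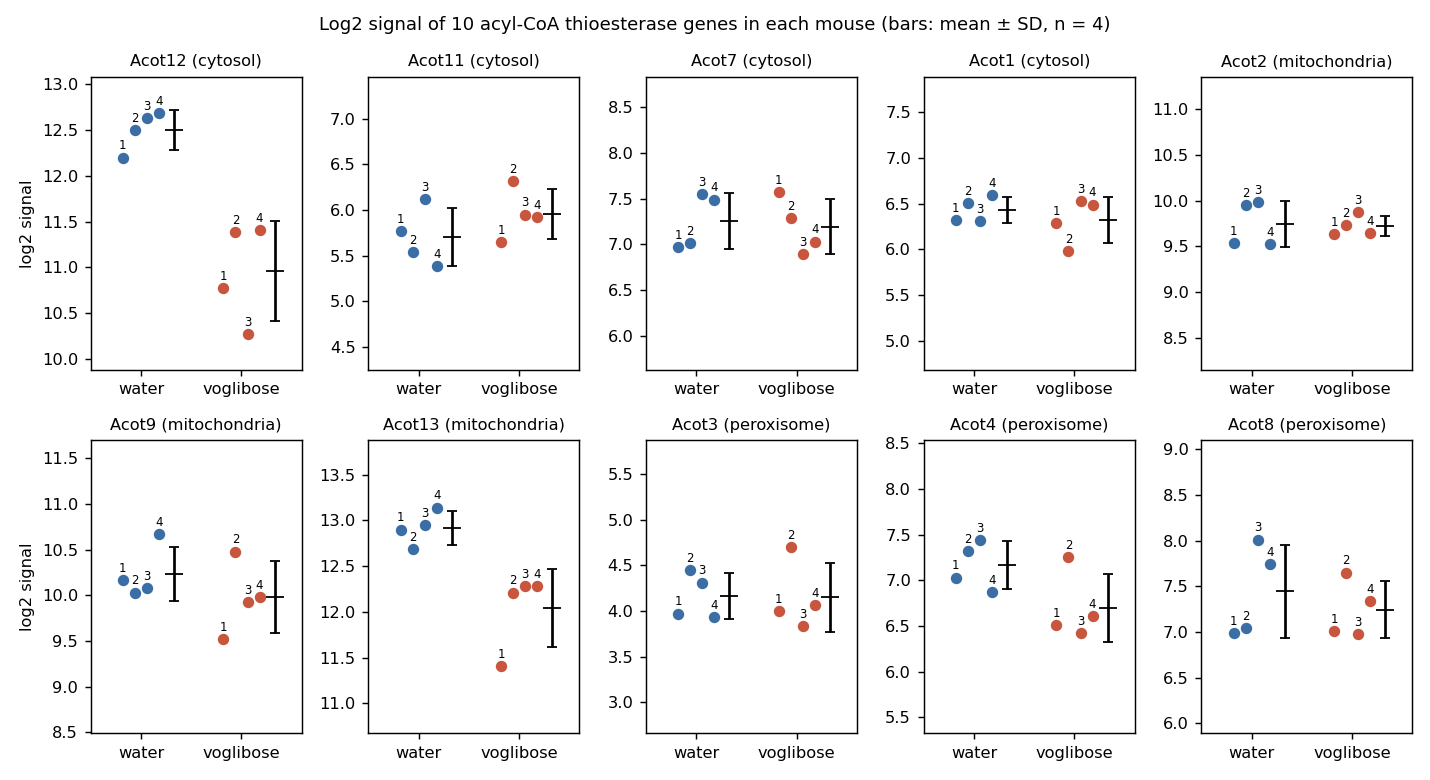
Log2 signal (vertical axis) of the 10 acyl-CoA thioesterase genes in each water mouse (blue) and voglibose mouse (red), with the mouse number at each point and the mean ± SD of 4 mice as a bar. The axes of all panels span the same range of signal around different levels, and Acot12 and Acot13 are the genes whose voglibose mice all lie below the water mice.

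The other cytosolic members differed by -0.11 to 0.26, each with an interval that included 0. Acot11, the thioesterase first found in brown fat, which also has a START domain, read 5.77, 5.54, 6.12 and 5.39 in water mice. It read 5.65, 6.32, 5.95 and 5.92 in voglibose mice. The groups overlapped, and the means of 5.71 ± 0.32 and 5.96 ± 0.28 (SD, n = 4) differed by 0.26 (95% interval -0.18 to 0.69) upward, which made it the one member with a higher mean in voglibose mice. Its limma adjusted p was 0.804. Leaving out 1 mouse at a time gave 0.135 (without voglibose mouse 2) to 0.39 (without water mouse 3), and leaving out water mouse 4 and voglibose mouse 2 together gave 0.03. Acot7, a thioesterase of long-chain acyl-CoA that is abundant in brain, was 6.97, 7.01, 7.55 and 7.49 in water mice. It was 7.57, 7.29, 6.89 and 7.03 in voglibose mice. Here both groups held low and high mice and covered nearly the same range, and the difference was -0.06 (95% interval -0.50 to 0.38). It ran from -0.185 to 0.04 when 1 mouse was left out, and was -0.01 without water mouse 4 and voglibose mouse 2. Acot1, the cytosolic member of the chromosome 12 cluster and a known target of PPAR alpha in liver, lay at 6.31 to 6.59 in water mice and 5.98 to 6.53 in voglibose mice. Its difference was -0.11 (95% interval -0.46 to 0.24), and its sign turned without water mouse 4 and voglibose mouse 2 (0.06).

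Among the mitochondrial members, Acot13 stood nearest to Acot12. Acot13 encodes a small hotdog-fold thioesterase attached to mitochondria, which binds the phosphatidylcholine transfer protein Pctp. Its log2 signal was 12.90, 12.69, 12.95 and 13.14 in water mice. In voglibose mice it was 11.41, 12.21, 12.28 and 12.28. All 4 voglibose mice lay below all 4 water mice, with a gap of 0.41, and voglibose mouse 1 was lower than the other 3 voglibose mice, which lay within 0.07 of each other. The means of 12.92 ± 0.18 and 12.05 ± 0.42 (SD, n = 4) differed by -0.88 (95% interval -1.33 to -0.42), a 1.83-fold lower signal. The limma adjusted p was 0.652 and the unadjusted p 0.00148, the latter under 0.05 in all 17 alternative analyses. Leaving out 1 mouse at a time gave -0.95 to -0.66 (without voglibose mouse 1), with no overlap in any of these cases, where 6.04% to 8.64% of all probe sets had none.

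Acot2, the mitochondrial matrix member of the chromosome 12 cluster, was 9.53, 9.95, 9.98 and 9.52 in water mice. In voglibose mice it was 9.63, 9.73, 9.87 and 9.64, so that the voglibose mice fell inside the range of the water mice. The difference was -0.03 (95% interval -0.38 to 0.32). It ran from -0.10 to 0.05 when 1 mouse was left out, was -0.11 without water mouse 4 and voglibose mouse 2, and was 0.05 after a further quantile normalization. Acot9, which acts on acyl-CoA of a broad range of chain lengths in mitochondria, was 10.17, 10.03, 10.08 and 10.67 in water mice. In voglibose mice it was 9.52, 10.48, 9.93 and 9.98. Of the voglibose mice, only voglibose mouse 2 lay above any water mouse for Acot9. The difference was -0.26 (95% interval -0.74 to 0.22, limma adjusted p = 0.818). Leaving out 1 mouse at a time gave -0.43 (without voglibose mouse 2, when the groups no longer overlapped) to -0.11 (without voglibose mouse 1), with -0.12 without water mouse 4. Groups without overlap were found for 6.86% of all probe sets when voglibose mouse 2 was left out.

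In the peroxisome, Acot4 had the largest difference of the 3 members. Acot4 hydrolyses succinyl-CoA and other dicarboxylic acyl-CoA in the mouse. It read 7.03, 7.32, 7.44 and 6.87 in water mice. It read 6.51, 7.25, 6.42 and 6.61 in voglibose mice. Voglibose mouse 2 lay among the water mice and the other 3 lay below them. The means of 7.17 ± 0.26 and 6.70 ± 0.38 (SD, n = 4) differed by -0.47 (95% interval -0.92 to -0.01), with a limma adjusted p of 0.659 and an unadjusted p of 0.0453. The unadjusted p stayed under 0.05 in 8 of 17 alternative analyses. Without voglibose mouse 2 the difference was -0.65, and without water mouse 4 and voglibose mouse 2 it was -0.75. Without voglibose mouse 3 it was -0.375, with an unadjusted limma p of 0.123. Acot8, a thioesterase of broad substrate range that includes bile acid CoA esters, was 6.99, 7.04, 8.01 and 7.74 in water mice. It was 7.01, 7.65, 6.98 and 7.34 in voglibose mice, with overlapping groups and a difference of -0.20 (95% interval -0.75 to 0.35). Leaving out 1 mouse at a time gave -0.35 (without water mouse 1) to -0.01 (without water mouse 3, the highest of the 8). Acot3, a peroxisomal member of the chromosome 12 cluster, was dim, with 3.93 to 4.45 in water mice and 3.83 to 4.70 in voglibose mice around the lower quartile of the array, and a difference of -0.02 (95% interval -0.47 to 0.44). That difference was -0.28 without water mouse 4 and voglibose mouse 2, and it ran from -0.20 (without voglibose mouse 2) to 0.09 (without voglibose mouse 3) when 1 mouse was left out.

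**Figure D2:**
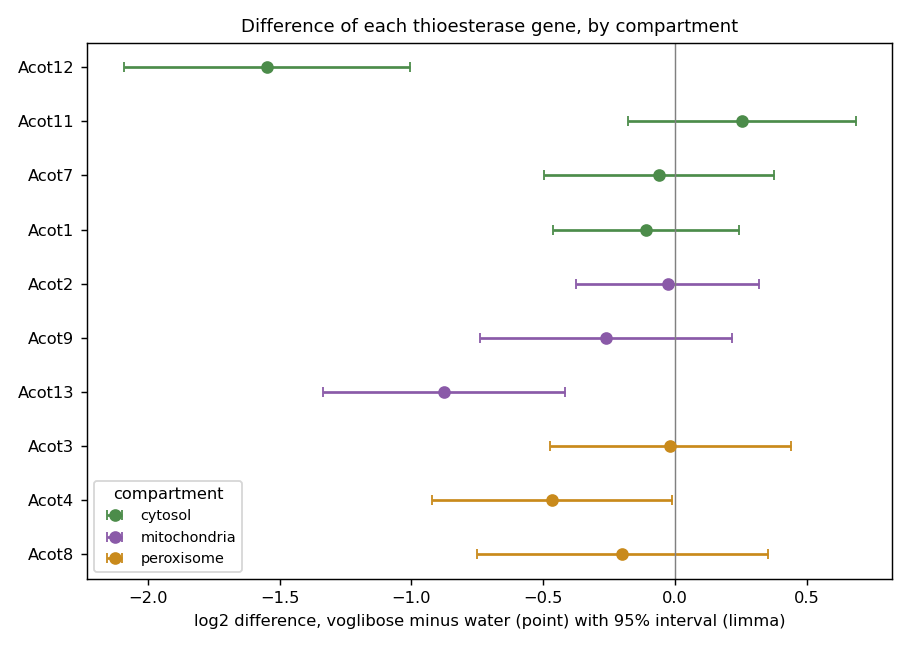
Difference in log2 signal between voglibose and water mice (horizontal axis, point) with its 95% interval from limma (bar) for the 10 genes, coloured by compartment. The intervals of Acot13 and Acot4 lie below 0, with that of Acot4 ending at -0.01, 7 include 0, and that of Acot12, which was chosen by its p, is drawn as a description.

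Read as a family, 9 of 10 members had a lower mean in voglibose mice, with a median difference of -0.155, or -0.11 over the 9 members without Acot12. Over all 22206 probe sets 50.9% were lower and the median difference was -0.005, and 57.0% were lower among probe sets with a mean above the array median. The count of lower members is less firm than it looks, since the signs of Acot1, Acot2, Acot3 and Acot7 turned in at least 3 of 17 alternative analyses while those of the other 6 held in all 17. No member passed a limma adjusted p of 0.05, and over the array the share of probe sets that passed was 0%. An unadjusted p under 0.05 was found for 3 members (Acot12, Acot13 and Acot4), all lower, where 7.52% of all probe sets had one in either direction and 4.44% were lower. The groups did not overlap for 2 members, Acot12 and Acot13, both lower, where this held for 4.35% of all probe sets in either direction and for 2.53% that were lower. Since Acot12 was chosen by its p, the counts that hold it are not evidence about the family: without it they were 2 and 1 of 9 members.

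By compartment, the 4 cytosolic members had a median difference of -0.085, and the 3 without Acot12 ran from -0.11 to 0.26 with a median of -0.06. The 3 mitochondrial members had a median of -0.26, and the 3 peroxisomal members a median of -0.20. An unadjusted limma p under 0.05 was found for 1 mitochondrial member (Acot13) and 1 peroxisomal member (Acot4), where 7.52% of all probe sets had one. In the cytosol only the selected Acot12 had one, and 0 of the 3 members without it. Each compartment also held members with differences near 0. By fold, the 4 members of type I (the alpha/beta hydrolases Acot1 to Acot4) had a median of -0.07. The 6 of type II (the hotdog-fold proteins) had a median of -0.23, or of -0.20 over the 5 without Acot12. These groups of 3 to 6 genes were not tested against each other.

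Set against each of the other 9 members within the same mouse, Acot12 was lower in voglibose mice in all 9 cases, with differences on the log2 scale from -0.67 (against Acot13) to -1.80 (against Acot11). These values repeat the selected difference of Acot12 and are a description. The difference between the signals of Acot12 and each of 8 members did not overlap between the groups. The exception was Acot13, for which Acot12 minus Acot13 was -0.70 to -0.19 in water mice and -2.01 to -0.64 in voglibose mice. Voglibose mouse 3, lowest for Acot12, had the value of -2.01, and voglibose mouse 1, lowest for Acot13, had -0.64. The lowest voglibose mouse was thus not the same for both genes, although voglibose mouse 1 was also the next lowest for Acot12 (10.77).

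Across the 8 mice, 45 pairs of members were compared by correlation, with exact permutation tests, and 0 passed Benjamini-Hochberg adjustment over the 45 (smallest adjusted p = 0.480 for Pearson's r), while 4 had an unadjusted p under 0.05. For Acot12 and Acot13 the mice fell into separate groups by treatment in both genes, so a pooled correlation holds that separation and is not given. The deviations of both genes from their group means correlated at 0.23. The pair of Acot3 and Acot4, neighbours on chromosome 12, gave r = 0.76 (exact permutation p = 0.0324, adjusted p = 0.502) and Spearman's rho = 0.71 (exact p = 0.0576, adjusted p = 0.579). Without the 2 mice farthest from the median of Acot3, r was 0.77, and the deviations from the group means correlated at 0.96. In each group the mice with a high Acot3 signal had a high Acot4 signal, with voglibose mouse 2 at the top of its group in both. Acot3 was dim and the genes are close copies, and shared probe signal was not tested. For Acot11 and Acot1 r was -0.70 (exact permutation p = 0.0471, adjusted p = 0.502) with rho = -0.57 (exact p = 0.151, adjusted p = 0.592). It fell to -0.08 without the 2 mice farthest from the median of Acot11, so that this relation rested on those mice. The fourth pair, Acot12 and Acot4, had deviations that correlated at 0.55.

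**Figure D3:**
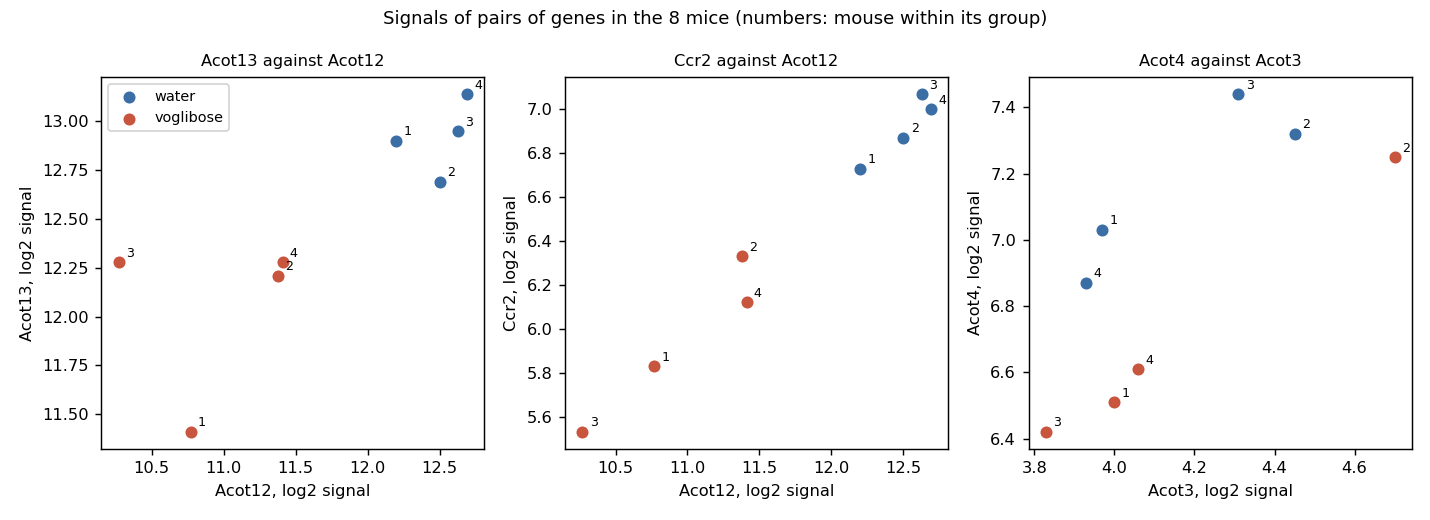
Log2 signals of Acot13 against Acot12, of Ccr2 against Acot12 and of Acot4 against Acot3 in the 8 mice, coloured by group and numbered within it. In the first and second panels the groups lie apart on both axes, and in the third the mice of both groups climb together, with the 3 voglibose mice other than mouse 2 below the water mice on the Acot4 axis.

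Probe sets with a pattern most like Acot12 were sought among 9728 with a single gene symbol and a mean above the array median. Predicted gene models and clone names were left out. Because Acot12 separated the groups, a gene that did so ranked high, and these correlations are given as a description over 8 arrays, without a test. The highest was Ccr2, the chemokine receptor that brings monocytes into tissue, at r = 0.992. Its signal was 6.73, 6.87, 7.07 and 7.00 in water mice. In voglibose mice it was 5.83, 6.33, 5.53 and 6.12. Ccr2 ordered voglibose mice 3 and 1 lowest as Acot12 did, and its groups did not overlap either. The next were Ccdc58, a mitochondrial protein (r = 0.966), Dynlt1b, a dynein light chain (r = 0.965), Fer, a tyrosine kinase (r = 0.957), and Tmem87b (r = 0.957). In all, 23 probe sets or 0.236% had an r above 0.9. When each group's mean was taken out first, Ccr2 came highest (r = 0.959), before Scgn, the calcium sensor secretagogin of enteroendocrine cells (r = 0.955). Pvr (r = 0.947), Abcc5, a drug and nucleotide exporter (r = 0.943), and Scyl3 (r = 0.939) followed. By this measure 11 probe sets had an r above 0.9. The r over the 8 mice also holds these deviations, so the 2 measures are not independent. Among the 10 highest by each measure 2 genes were shared, Ccr2 and Zfp655. Abcc5 followed Acot12 within the groups but not between them, with a mean 0.24 higher in voglibose mice. Pooled values of the family hold the separation of Acot12 and are not ranked here. With each group's mean taken out, Acot8 had the highest r of the family (0.67), followed by Acot3 (0.58) and Acot4 (0.55). Acot13 had an r of 0.23 by this measure, and Acot2 (-0.13) and Acot1 (-0.31) had negative values.

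The genes around the family were described through 8 lists of acyl-CoA biology, some of which share genes, and 0 genes of any list passed a limma adjusted p of 0.05. Over all probe sets the background shares were 7.52% at an unadjusted p under 0.05, 50.9% lower and 4.35% with groups that did not overlap. Most genes of the lists had a mean above the array median. Among probe sets that bright 57.0% were lower, and 1071 of 11101 had an unadjusted limma p under 0.05. Of 9 other thioesterases, 5 were higher and 4 lower, with a median difference of 0.07. Of these Them6 had an unadjusted p under 0.05, at 5.10 to 5.52 in water mice and 5.48 to 6.16 in voglibose mice, a difference of 0.52 ± 0.19 (SE). The remaining Acot genes gave -0.29 for Acot10, 0.25 for Acot5 and 0.28 for Acot6, the last pair dim and below the lower quartile of the array in most mice. The opposing enzymes, the acyl-CoA synthetases, were higher in 11 of 21 and had a median of 0.02. Acsbg2, a synthetase of long-chain fatty acids and the one of the list with an unadjusted p under 0.05, was dim at 3.84 to 4.10 in water mice and 4.05 to 4.46 in voglibose mice, a difference of 0.35 ± 0.14 (SE). Acsm5, a medium-chain synthetase, differed by 0.90 ± 0.41 (SE, limma adjusted p = 0.659), with 6.58 to 8.29 in water mice and 7.48 to 9.26 in voglibose mice.

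The genes of acetyl-CoA, the substrate of Acot12, were lower in 12 of 18, with a median of -0.07. Acat1, the mitochondrial thiolase of ketone and isoleucine metabolism, had 13.72, 13.41, 13.53 and 14.05 in water mice. It had 12.61, 13.34, 13.12 and 13.30 in voglibose mice, all below the water mice but with a gap of only 0.07. The difference was -0.585 ± 0.20 (SE, limma adjusted p = 0.652). Pdha1, a subunit of pyruvate dehydrogenase, differed by -0.56 ± 0.26 (SE) with overlapping groups. Of 13 genes that build or degrade coenzyme A, 6 were higher and 7 lower. The pantetheinase Vnn1 differed by -0.74 ± 0.27 (SE) and the mitochondrial coenzyme A carrier Slc25a42 by 0.36 ± 0.13 (SE). Slc25a42 was 5.34 to 5.50 in water mice and 5.60 to 5.89 in voglibose mice, without overlap. The peroxisomal coenzyme A hydrolase Nudt7 differed by -0.625 ± 0.22 (SE) in its brightest probe set, while its other probe sets were higher in voglibose mice.

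Genes that bind acyl-CoA or fatty acids were lower in 6 of 10, with a median of -0.10 and none at an unadjusted limma p under 0.05. Of 11 other proteins with a START domain, the fold that Acot12 and Acot11 carry, 6 were higher and 5 lower, with none at that threshold. Pctp, the binding partner of Acot13, was 6.23 to 6.95 in water mice and 6.24 to 6.71 in voglibose mice, with overlap. Targets of PPAR alpha outside the family, the receptor known to induce Acot1 to Acot4 in liver, were lower in 15 of 23 with a median of -0.095, and 1 was higher (Acaa1b) and 1 lower (Vnn1) at an unadjusted p under 0.05.

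Peroxisomal fatty acid oxidation, the pathway around Acot3, Acot4 and Acot8, was split between directions: 11 of 21 genes were higher and 10 lower, with a median of 0.05. Decr2, the peroxisomal dienoyl-CoA reductase, was 8.10 to 8.19 in water mice and 8.57 to 8.75 in voglibose mice, a difference of 0.515 ± 0.13 (SE, limma adjusted p = 0.652). The thiolase Acaa1a was 10.41 to 10.52 and 10.57 to 11.23, a difference of 0.40 ± 0.16 (SE), and its paralog Acaa1b differed by 0.39 ± 0.17 (SE) with overlap. Crot, the carnitine acyltransferase that exports shortened acyl groups from the peroxisome, lay the other way, at 14.98 to 15.36 and 14.47 to 14.79, a difference of -0.46 ± 0.15 (SE). The groups did not overlap for Decr2, Acaa1a and Crot, 3 of the 21 genes, where this held for 4.35% of all probe sets. The peroxisomal list thus held genes above and below the water mice beside the lower Acot4.

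**Figure D4:**
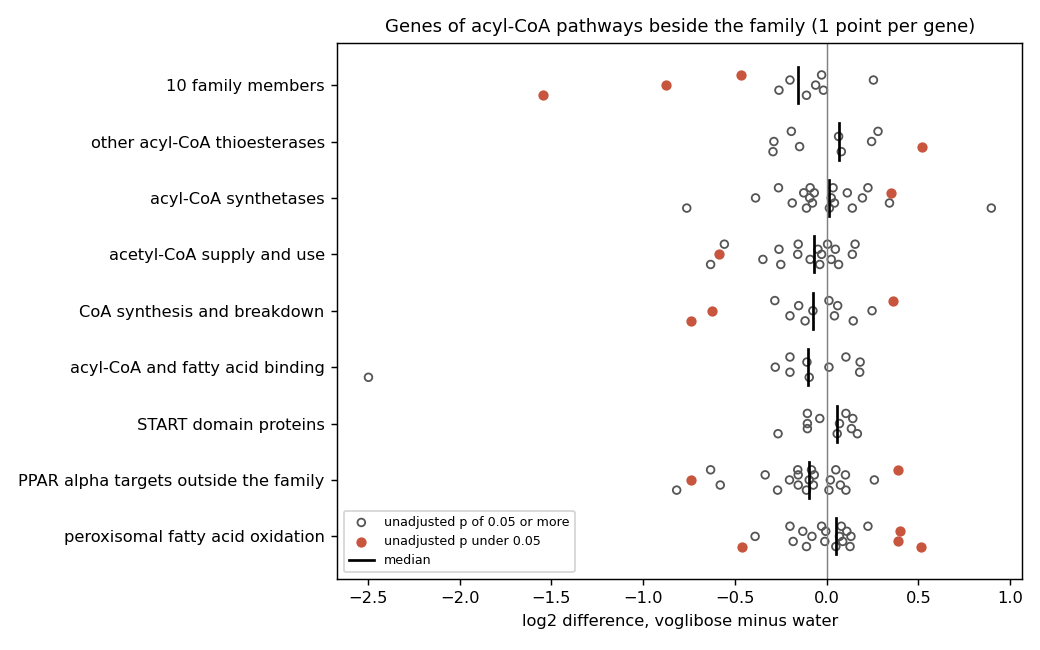
Difference in log2 signal between voglibose and water mice (horizontal axis) for each gene of the family and of 8 lists of acyl-CoA biology, with filled points for an unadjusted limma p under 0.05 and a bar at the median. The medians of the lists lie between -0.10 and 0.07. The family median lies at -0.155 with Acot12, which was chosen by its p, and at -0.11 over the 9 members without it. The single point near -2.5 is Fabp6, which ran from 3.54 to 17.50 over the mice.

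Markers of the region of gut and of other cells were set beside these values. Of the 10 members, Acot2 had the one correlation with the mean of the distal ileal list at an unadjusted p under 0.05 (r = 0.71, exact permutation p = 0.0479, rho = 0.71, exact p = 0.0576, adjusted p over 10 relations 0.479 and 0.576). Without the 2 mice farthest from the median of Acot2, water mice 2 and 3, r was 0.37. For Acot12 the same correlation was 0.15 (exact permutation p = 0.714, rho = 0.14, exact p = 0.752) and 0.30 without the 2 farthest mice, with adjusted p of 0.857 and 0.940. Smooth muscle markers, from the gut wall, had a list mean of 10.73 to 13.97 in water mice and 11.97 to 13.05 in voglibose mice, and immune markers 7.03 to 8.62 and 7.51 to 8.41. The mean of 6 adipocyte markers was 3.65 to 4.71 in water mice and 3.91 to 4.20 in voglibose mice, around the array's lower quartile. The other adipocyte marker, Cidec, which was named after its values were seen, lay at 10.34 to 10.66 and 10.18 to 10.85. None of the marker genes had an unadjusted limma p under 0.05. Voglibose mouse 2, with the pancreatic acinar signal and Cpa1 at 12.01, was the highest voglibose mouse for Acot3, Acot4, Acot8, Acot9 and Acot11. Without this mouse the differences were -0.65 for Acot4, -0.43 for Acot9, -0.335 for Acot8, -0.20 for Acot3 and 0.135 for Acot11. All were lower than with it, which follows from its place at the top of the group for these genes. For Acot1 it was the lowest voglibose mouse (5.98), and the difference moved up from -0.11 to 0.004 without it.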

How the data were processed

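Per the submitters' processing notes, the authors normalized the arrays with RMA and used the Transcriptome Analysis Console. For both tools the version, and for the annotation the build, was not given in the sources used here. The deposited values are log2 signals, 1 per probe set and array, written with 2 decimals. RMA pulls the arrays to a common distribution, which limits what can be said of a shift of all genes. No array was left out.

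Under R 4.3.3, lmFit and eBayes of limma 3.58.1 fitted a linear model (2-sided test) to all 22206 probe sets without a filter, 4 voglibose against 4 water mice, with Benjamini-Hochberg adjustment over all of them and a threshold of 0.05. The script was tested on simulated data first. The median standard error of a difference was 0.18. The number of arrays limits the precision. Symbols came from the platform annotation, with the probe set of the highest mean for genes with several. Correlations used Python 3.11.15 with exact permutation of the mice.

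The members and lists were chosen with earlier results of these data known. All 10 members were named; from each list up to 4 genes with the smallest p could be named, and the genes most like Acot12 were those with the highest correlation, of which the first 5 by each measure are given. The labels describe 4 mice per group and name no batch. The limma p-values set a difference against the spread between these mice, with the variance moderated over all probe sets. The alternatives were a further quantile normalization, centred medians, no variance moderation, a trend with a robust prior, array weights, a filter at the lower quartile, a block on the replicate number, each mouse left out and pairs of mice left out.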

Additional observations from a re-analysis of the deposited data

Results flagged for a closer look

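Within each group of 4 mice, each member was checked for a mouse that stood far from the other 3, which chance alone gives in about 1 of 20 groups; 20 groups were checked. In the voglibose mice Acot13 was at 11.41 in mouse 1 while the other 3 lay at 12.21 to 12.28, so that the gap filled 0.92 of the range of the group. The difference of Acot13 was -0.66 without this mouse.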

How the results depend on the processing

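The 0 probe sets that passed the adjusted limma threshold stayed at 0 in all 17 alternatives, with 969 (without voglibose mouse 1) to 1906 (without voglibose mouse 3) probe sets at an unadjusted p under 0.05, against 1671. The difference of Acot12 stayed between -1.70 and -1.32. The members whose groups did not overlap numbered 2 to 4 when 1 mouse was left out, where 6.04% to 8.64% of all probe sets did not overlap. They numbered 4 without voglibose mouse 2 (Acot12, Acot13, Acot4 and Acot9, with 6.86% of all probe sets), 4 without water mouse 4 and voglibose mouse 2 (10.5%) and 4 without water mouse 2 and voglibose mouse 2 (13.3%), the last chosen after seeing the data. Fewer mice leave more genes without overlap, so these counts are not to be read against the 2 of the full groups. The members at an unadjusted p under 0.05 numbered 2 to 4. With the replicate number as a block, Acot12 differed by -1.55 and 3 members had an unadjusted p under 0.05. Deviations from the group means correlated at -0.32 to 0.015 between mice with the same number, and at -0.28 to 0.40 between mice with unlike numbers. The labels name no pairing, and these correlations cannot decide whether the numbers pair the mice, because unlike-numbered mice also differed widely. A further quantile normalization moved the share of lower probe sets among those with an unadjusted p under 0.05 from 59.1% to 50.5%. With 4 mice a group and a median standard error of 0.18, differences of the size of most members were not detectable, and signal near the lower quartile, as for Acot3, can hide one.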
